A study of Rattus norvegicus with 6 samples.

Results

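The genes described here are 10 stress-response genes that the tumor suppressor p53 or the GADD45 pathway is known to control or contain: *Cdkn1a*, *Mdm2*, *Gadd45a*, *Gadd45b*, *Gadd45g*, *Btg2*, *Sesn1*, *Sesn2*, *Plk2* and *Plk3*. They were chosen by name, with earlier results of these data known. All 10 were found among the 28293 genes of the table and among the 10942 genes with enough signal to be tested. RNA sequencing was performed on myocardial tissue of 6 wild-type male rats. The MI/RI group (myocardial ischemia/reperfusion injury, 3 rats) had the left anterior descending coronary artery tied for 30 min under anesthesia, with ventilation and an opened chest, followed by 6 h of reperfusion. The sham group (3 rats) carries the same times in its labels. Strain, age and the sampled region of the heart are not given in the sources used here, nor whether the rats shared a litter or an operating day, so the p-values measure the spread between these 6 samples.

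p53 is a transcription factor that is stabilized by DNA damage, hypoxia and oxidative stress and that switches on genes for cell cycle arrest, DNA repair, antioxidant defense and cell death. Its ubiquitin ligase *Mdm2* is itself a p53 target and closes a negative feedback loop. The GADD45 proteins are small acidic proteins that bind the kinase MAP3K4 and so feed the p38 and JNK branches of MAPK signaling. *Gadd45a* is the member best known as a p53 target, whereas *Gadd45b* is a known NF-κB target. In adult myocardium, cardiomyocytes hardly divide. The age of these rats is not given, and values of bulk tissue do not show which cells express the genes.

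The promoters of the GADD45 family and of *Cdkn1a* are shown because these genes stand for the different controls just described and because their RNA levels were compared below. The sequences are those of RefSeq on the GRCr8 rat assembly, and all 10 genes matched its promoter table, which gives 250 bases before and 50 bases after a start site. The genome build of the expression table is not given in the sources used here, so the coordinates belong to the promoter table alone. Each sequence is written 5′ to 3′ on the strand of the gene and ends before the outermost start of the gene. The *Cdkn1a* stretch is chr20:7150682-7150819 on the plus strand, cut at 138 bases because another transcript starts inside the window. The other stretches of 250 bases are chr4:97486800-97487049 for *Gadd45a*, chr7:9430719-9430968 for *Gadd45b* and chr17:13530352-13530601 for *Gadd45g*, all on the minus strand. Capitals mark matches, on either strand, to any of the motifs searched: the p53 half-site, the NF-κB site and the CArG box of serum response factor (by their usual consensus), the AP-1 site TGANTCA, the cyclic AMP response element TGACGTCA, the TATA box TATAAA and the CCAAT box CCAAT.
Cdkn1a: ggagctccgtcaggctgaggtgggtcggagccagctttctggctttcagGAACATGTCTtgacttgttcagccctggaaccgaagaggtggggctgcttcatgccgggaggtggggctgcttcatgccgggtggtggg
Gadd45a: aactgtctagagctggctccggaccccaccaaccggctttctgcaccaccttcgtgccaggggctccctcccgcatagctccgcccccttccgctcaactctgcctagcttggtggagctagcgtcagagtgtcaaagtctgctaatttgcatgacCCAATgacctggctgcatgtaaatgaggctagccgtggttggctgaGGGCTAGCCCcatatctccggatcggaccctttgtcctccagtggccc
Gadd45b: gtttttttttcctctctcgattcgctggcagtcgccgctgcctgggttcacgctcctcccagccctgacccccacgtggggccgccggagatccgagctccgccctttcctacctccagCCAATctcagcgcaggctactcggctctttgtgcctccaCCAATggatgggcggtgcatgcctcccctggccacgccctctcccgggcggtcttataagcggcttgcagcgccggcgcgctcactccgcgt
Gadd45g: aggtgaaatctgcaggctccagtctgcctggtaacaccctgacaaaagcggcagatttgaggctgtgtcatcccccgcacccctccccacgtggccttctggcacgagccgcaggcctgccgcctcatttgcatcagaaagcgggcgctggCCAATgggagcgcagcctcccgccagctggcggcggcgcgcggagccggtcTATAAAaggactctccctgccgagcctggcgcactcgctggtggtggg

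Among the 10 promoters, a p53 half-site was present in 3, against 7.89% of the 27457 rat promoters of this length. In *Cdkn1a* it lay at −201 to −192 from the listed start (GAACATGTCT), and the 10 letters that follow it differed from a further half-site at 1 position. The half-sites of *Gadd45a* at −48 to −39 (GGGCTAGCCC) and *Sesn1* at −172 to −163 (AAGCTTGTTT) were followed by letters that differed at 6 and 3 positions. The TATA box was found in *Gadd45g* alone of the 10, at −48 to −43 (14.3% of all promoters). *Btg2*, at −201 to −194, and *Plk2*, at −66 to −59, held the cyclic AMP response element, which occurs in 1.91% of all promoters. A CCAAT box was present in 8 of the 10, all but *Cdkn1a* and *Plk3*, and in 37.7% of all promoters. No NF-κB site (7.60% of all promoters), CArG box (1.64%) or AP-1 site (7.33%) was matched in any of the 10 windows. No 2 of the motifs overlapped in the stretches printed. These matches describe letters in a short window and say nothing about binding.

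Expression was deposited as FPKM (fragments per kilobase of transcript, scaled to library size), a level per length, so that levels of different genes can be compared. Differences were tested with limma on log2(FPKM + 0.1) across all 10942 genes, and a gene was called at an adjusted p under 0.05. All values of log2 difference given here are on that scale, MI/RI minus sham, which understates the change of genes near 0.1 FPKM. Of the 10 genes, 5 were called higher (*Gadd45a*, *Gadd45b*, *Gadd45g*, *Btg2* and *Plk3*) and 0 lower. At an unadjusted p under 0.05 the counts were the same, 5 and 0. The share of all genes at that unadjusted threshold was not counted, so the unadjusted counts here and below have no background to be read against. By the adjusted p, 25.5% of all genes tested were called higher and 7.36% lower. Among genes with a mean of at least 5 FPKM, 4 of 8 of these genes were called higher, beside 1892 of all 3784 tested. Of the calls over all genes, 77.6% were higher as deposited, 56.5% after median centring, 48.0% with quantile normalization and 21.7% after rescaling over genes outside the mitochondrial genome. In 6 of the 10 genes, the 5 named plus *Cdkn1a*, every MI/RI rat lay above every sham rat, and 37.2% of all genes tested did so. The median log2 difference of the 10 genes was 1.45, beside 0.29 over all genes tested. Since the 10 genes were chosen with earlier results known, these comparisons with all genes are descriptive and no test of the set.

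Several facts of the libraries touch these values. Each summed to between 894902 and 928941 FPKM in sham and between 731063 and 825490 in MI/RI. The 13 mitochondrially encoded mRNAs took 80.1 to 86.2% of that sum in sham and 61.8 to 71.5% in MI/RI, and 2 of them were called lower. Cardiomyocyte markers were also present at different levels: 5 of 7 were called higher (median log2 difference 1.92), their summed level ran from 3226 to 10524 FPKM in sham and from 21184 to 30388 FPKM in MI/RI, and none was at 0 in any sample. In bulk tissue, fewer cells of a type and less RNA per cell cannot be told apart. Of the neutrophil and monocyte markers, 3 of 5 tested were called higher (sums of 51.3 to 67.2 FPKM in sham and 78.3 to 144.0 in MI/RI), and of the fibroblast markers 2 of 7 (420.1 to 580.9 and 605.0 to 669.3). With quantile normalization and after rescaling over genes outside the mitochondrial genome, the called neutrophil and monocyte markers numbered 1 and 1 of 5, and 0 fibroblast markers were called higher and 2 lower in both. None of 7 endothelial markers was called by limma (1 higher and 1 lower at an unadjusted p under 0.05), with sums of 172.9 to 227.2 FPKM in sham and 170.4 to 212.8 FPKM in MI/RI, whereas 6 were called lower with quantile normalization, 4 after the rescaling and 7 centred on cardiomyocyte markers. Of 7 smooth muscle and pericyte markers, 1 was called higher and 1 lower, and *Hba-a2*, the 1 red blood cell marker in the table, was not called. The part of these shifts in the results below was not tested.

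**Figure D1:**
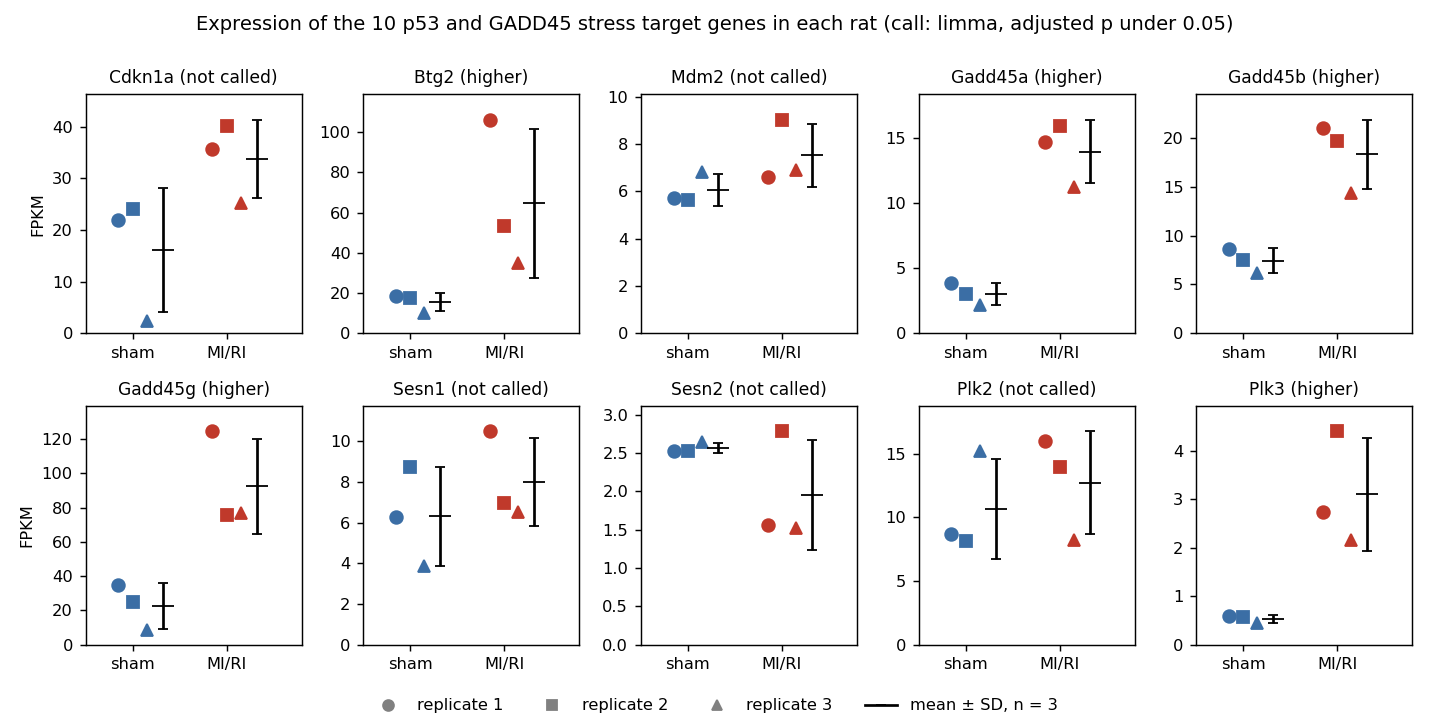
FPKM of the 10 genes in each rat, 1 panel a gene with its own vertical axis from 0, with sham rats in blue, MI/RI rats in red and bars for the mean ± SD of each group (n = 3). The groups are apart in *Cdkn1a*, *Btg2*, *Gadd45a*, *Gadd45b*, *Gadd45g* and *Plk3*, where sham replicate 3 of *Cdkn1a* sits at 2.30 FPKM, far under the other sham rats.

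The GADD45 genes are stress sensors without enzymatic activity of their own. *Gadd45a*, which also takes part in DNA repair and demethylation, was present at 3.88, 3.01 and 2.21 FPKM in the sham rats and at 14.7, 15.9 and 11.2 FPKM in the MI/RI rats. The lowest MI/RI rat was well above the highest sham rat, and the means were 3.03 ± 0.838 and 14.0 ± 2.43 FPKM (SD, n = 3). The log2 difference was 2.19 (SE 0.26, limma adjusted p = 0.00155). *Gadd45a* rose more than all but 2.43% of the genes tested.

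*Gadd45b*, an immediate early gene that restrains JNK signaling, had 8.66, 7.49 and 6.15 FPKM in sham rats and 21.0, 19.7 and 14.3 FPKM in MI/RI rats. The spread within each group was narrow and the groups did not overlap. The means were 7.43 ± 1.26 and 18.3 ± 3.51 FPKM (SD, n = 3), a log2 difference of 1.29 (SE 0.24, limma adjusted p = 0.00574). When each library was rescaled over genes outside the mitochondrial genome, the log2 difference of *Gadd45b* was 0.51 (limma adjusted p = 0.127) and the call was lost; over all 18 alternatives the adjusted p of *Gadd45b* ran from 0.00119 to 0.157.

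*Gadd45g*, known for roles in differentiation and growth arrest, was the most abundant of the family in every rat, at 34.8, 24.9 and 8.28 FPKM in sham and 124.6, 75.8 and 76.8 FPKM in MI/RI. Sham replicate 3 was low and MI/RI replicate 1 was high, yet every MI/RI rat exceeded every sham rat. The means were 22.7 ± 13.4 and 92.4 ± 27.9 FPKM (SD, n = 3), and the log2 difference was 2.21 (SE 0.47, limma adjusted p = 0.00836). It was 1.61 without sham replicate 3, still called, and 1.31 with quantile normalization (limma adjusted p = 0.0619), not called. The adjusted p of *Gadd45g* ran from 0.000506 to 0.640 over the 18 alternatives, the highest being that of centring on cardiomyocyte markers.

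Summed over the family, GADD45 transcripts came to 47.3, 35.4 and 16.6 FPKM in the sham rats and 160.3, 111.4 and 102.4 FPKM in the MI/RI rats. Shares within the family were compared as well. *Gadd45b* made up 18.3, 21.1 and 37.0% of the family in sham and 13.1, 17.7 and 14.0% in MI/RI, without overlap but nearly touching (exact two-sided permutation p = 0.1), and the shares of *Gadd45a* and *Gadd45g* overlapped (exact permutation p = 0.5 and 0.4). Within each library, the log2 ratio of *Gadd45b* to *Gadd45a* was 1.14, 1.29 and 1.44 in sham and 0.51, 0.30 and 0.35 in MI/RI. Every sham rat was above every MI/RI rat, and the difference was −0.90 (exact two-sided permutation p = 0.1, the smallest that 3 against 3 allows, and 0.3 after adjustment over the 6 ratios tested). The ratio of *Gadd45g* to *Gadd45a* averaged 2.67 ± 0.70 in sham and 2.69 ± 0.42 in MI/RI (log2, SD, n = 3), a difference of 0.03 (exact permutation p = 0.9). The difference for *Gadd45g* to *Gadd45b* was 0.93 with overlapping groups (exact permutation p = 0.2), and 0.45 without sham replicate 3.

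Among the regulators of growth arrest, *Btg2*, an antiproliferative gene that promotes mRNA deadenylation, was at 18.7, 17.6 and 10.2 FPKM in sham rats and at 106.1, 53.3 and 34.8 FPKM in MI/RI rats. The MI/RI rats were widely spread, and the lowest of them was still above the highest sham rat. The means were 15.5 ± 4.57 and 64.7 ± 37.0 FPKM (SD, n = 3), with a log2 difference of 1.95 (SE 0.40, limma adjusted p = 0.00743).

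*Cdkn1a*, which encodes the cyclin-dependent kinase inhibitor p21 and is the textbook p53 target, was measured at 21.9, 24.1 and 2.30 FPKM in the sham rats and 35.7, 40.1 and 25.3 FPKM in the MI/RI rats. The groups did not overlap, but sham replicate 3 was 10.5-fold below the highest sham rat. The means of 16.1 ± 12.0 and 33.7 ± 7.60 FPKM (SD, n = 3) gave a log2 difference of 1.61 (SE 0.74) that was not called (limma adjusted p = 0.118). With same-numbered rats taken as blocks, the limma adjusted p was 0.0193, and without sham replicate 3 the log2 difference was 0.52 (limma adjusted p = 0.237). Over the 18 alternatives the adjusted p of *Cdkn1a* lay between 0.0193 and 0.450, and the block gave its one call. That rat was the lowest sham rat for 7 of the 10 genes, and for 44.3% of all genes tested.

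*Mdm2*, the ubiquitin ligase that degrades p53, had 5.74, 5.62 and 6.84 FPKM in sham rats and 6.62, 9.02 and 6.91 FPKM in MI/RI rats. The groups overlapped, and the log2 difference was 0.30 (SE 0.22, limma adjusted p = 0.332), next to the median of all genes at 0.29. The log2 ratio of *Cdkn1a* to *Mdm2* differed by 1.32 between the groups (exact permutation p = 0.3), with overlap, and by 0.14 without sham replicate 3. In the pairs of same-numbered rats it was higher in MI/RI in 3 of 3 (exact paired permutation p = 0.25, the smallest that 3 pairs allow), so neither test could pass 0.05.

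The sestrins are antioxidant proteins that restrain mTORC1. *Sesn1* was present at 6.30, 8.76 and 3.87 FPKM in sham and 10.5, 6.95 and 6.55 FPKM in MI/RI, and the groups overlapped (log2 difference 0.38, SE 0.32, limma adjusted p = 0.387). *Sesn2* had 2.53, 2.53 and 2.64 FPKM in sham rats and 1.56, 2.79 and 1.52 FPKM in MI/RI rats. The sham rats were almost equal, 2 MI/RI rats lay under them and 1 above, and the log2 difference was −0.43 (SE 0.27, limma adjusted p = 0.238). *Sesn2* was the 1 gene of the 10 with a value below 0, and it was called lower after rescaling over genes outside the mitochondrial genome (log2 difference −1.18, limma adjusted p = 0.0161, with a range of 0.000286 to 0.518 over the alternatives). *Sesn3*, the remaining sestrin, averaged 0.508 FPKM in sham and 0.401 FPKM in MI/RI and was under the filter. The log2 ratio of *Sesn2* to *Sesn1* differed by −0.81 with overlapping groups (exact permutation p = 0.2), and by −0.48 without sham replicate 3.

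*Plk2* and *Plk3* are stress-inducible polo-like kinases, unlike the mitotic kinase *Plk1*. *Plk3* was the least abundant of the 10 genes in sham, at 0.595, 0.563 and 0.437 FPKM, and reached 2.74, 4.40 and 2.16 FPKM in MI/RI. The means were 0.531 ± 0.0837 and 3.10 ± 1.16 FPKM (SD, n = 3), 5.83-fold apart, and the groups were far from overlapping. Its log2 difference of 2.29 was the highest of the 10 (SE 0.30, limma adjusted p = 0.0023), and 1.93% of all genes tested rose more. *Plk2*, by contrast, ranged from 8.10 to 15.2 FPKM in sham and from 8.22 to 16.0 FPKM in MI/RI, with a log2 difference of 0.26 (SE 0.33, limma adjusted p = 0.576).

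Within each library, the log2 ratio of *Plk3* to *Plk2* was −3.66, −3.63 and −4.83 in sham and −2.51, −1.64 and −1.88 in MI/RI. The groups did not overlap, and the ratio was higher by 2.03 in MI/RI (exact permutation p = 0.1, adjusted over the 6 ratios 0.3). *Plk3* made up 4.58 ± 1.70% of polo-like kinase transcripts in sham and 19.4 ± 4.59% in MI/RI (SD, n = 3). *Plk2* remained the most abundant of the family in all 6 rats.

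**Figure D2:**
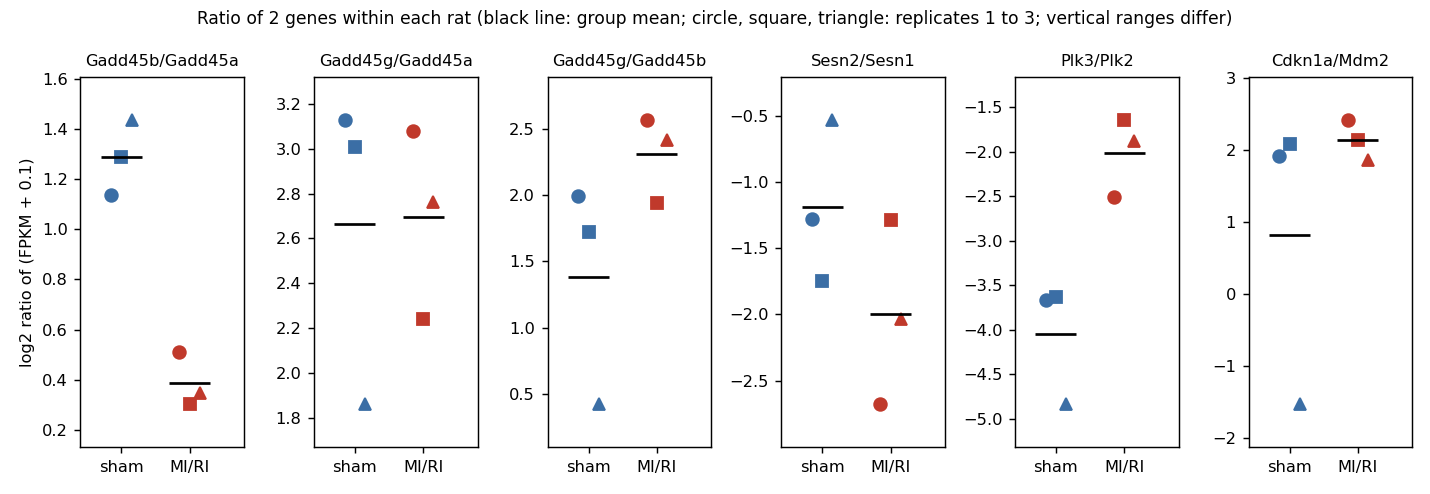
Log2 ratios of FPKM between related genes in each rat, in which a single scaling factor per library cancels apart from the 0.1 FPKM added, on a separate vertical axis for each ratio, with sham in blue, MI/RI in red and a line at the mean of each group. The groups are apart in *Gadd45b* to *Gadd45a* (1.29 in sham, 0.39 in MI/RI) and *Plk3* to *Plk2* (−4.04 and −2.01), and they overlap in the other 4 ratios.

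Replicates of these genes were more spread than those of the median gene. The median SD of log2 values was 0.43 in sham and 0.39 in MI/RI over the 10 genes, against 0.31 and 0.30 over all genes tested. In each fit with 1 rat left out, 5 of the 10 genes were called higher. Over all genes tested, 1526 to 2567 were called higher in those fits, against 2790 with all rats.

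Because the mitochondrial share differed between the groups, the 10 genes were also followed under other scalings. The median log2 difference of all genes tested was 0.29 as deposited, 0.47 with TPM, 0.04 after median centring, −0.02 after quantile normalization and −0.46 after rescaling over genes outside the mitochondrial genome. Relative to that median, *Plk3* lay between 1.998 and 2.20 above, *Gadd45a* between 1.75 and 1.91, *Gadd45g* between 1.34 and 1.94, *Btg2* between 1.10 and 1.67, *Cdkn1a* between 0.90 and 1.34 and *Gadd45b* between 0.67 and 1.01, the centring on cardiomyocyte markers included. *Mdm2*, *Sesn1* and *Plk2* lay between −0.39 and 0.10 of it, and *Sesn2* lay between 0.72 and 0.60 below. A single factor per library moves all genes alike, so it cannot change these distances apart from the 0.1 FPKM added and the filter. Only quantile normalization could shift the genes against each other, and the ranges are therefore no test of stability over the scalings. Centred on cardiomyocyte markers, which lowers every value by their mean difference between the groups and moves the median of all genes to −1.71, the log2 difference was 0.29 for *Plk3*, 0.21 for *Gadd45g*, 0.18 for *Gadd45a*, −0.05 for *Btg2*, −0.39 for *Cdkn1a* and −0.71 for *Gadd45b*, none of them called, and *Mdm2*, *Sesn1*, *Sesn2* and *Plk2* were called lower. Under that centring, limma called 0 of the 10 genes higher and 4 lower, beside 45 higher and 8180 lower of all 10942 genes tested.

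**Figure D3:**
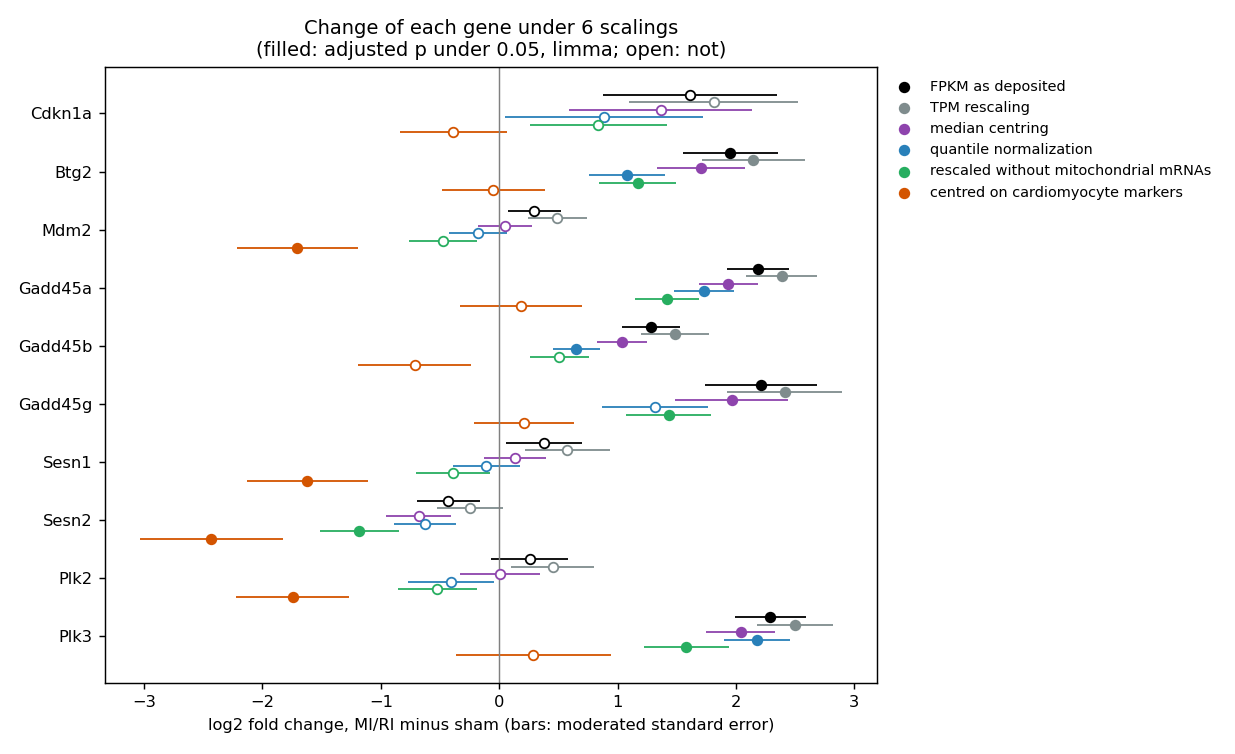
Log2 difference (MI/RI minus sham) of each of the 10 genes under 6 scalings of the libraries, with filled points where limma gave an adjusted p under 0.05 and bars for the moderated standard error. Centring on cardiomyocyte markers moves all 10 genes to the left and leaves *Gadd45a*, *Gadd45g* and *Plk3* above 0, with *Sesn2* (−2.43), *Plk2* (−1.74), *Mdm2* (−1.70) and *Sesn1* (−1.62) the furthest below.

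Other known p53 targets were counted from lists by role. Of 47 genes, 44 were in the table and 35 were tested. Of these, 11 were called higher and 3 lower (31.4% and 8.57%), beside 25.5% and 7.36% of all genes tested, and their median log2 difference was 0.39. Without sham replicate 3, 5 of 34 tested were called higher, beside 1526 of 10922 genes overall in that fit.

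Among the 12 cell death genes tested, 4 were called higher and 0 lower by limma (6 and 0 at an unadjusted p under 0.05). The shares by limma were 33.3% and 0%, beside 25.5% and 7.36% of all genes tested. *Pmaip1*, which encodes the BH3-only protein NOXA, went from 0.795, 1.36 and 1.13 FPKM to 2.53, 5.40 and 2.96 FPKM (log2 difference 1.60, SE 0.32, limma adjusted p = 0.0068). Its log2 difference was 0.85, not called, after rescaling over genes outside the mitochondrial genome. *Perp*, a desmosomal protein tied to p53-dependent apoptosis, averaged 5.18 FPKM in sham and 14.2 FPKM in MI/RI (log2 difference 1.52), and was not called with quantile normalization (0.99). *Tnfrsf10b*, a TRAIL death receptor, averaged 0.248 FPKM in sham and 0.782 FPKM in MI/RI, and passed the filter through the MI/RI rats. Its log2 difference was 1.40 with all rats. The call was lost without sham replicate 1 (1.18), sham replicate 3 (1.26) or MI/RI replicate 3 (1.60), and after the rescaling (0.77). With no filter on low values the call was lost too (limma adjusted p = 0.0622). The counts of cell death genes and of other p53 targets called higher include *Tnfrsf10b*. The fourth cell death gene called higher was the nuclease gene *Aen*, at means of 0.630 FPKM in sham and 1.48 FPKM in MI/RI. Its limma adjusted p of 0.0426 was near the threshold (log2 difference 1.03), and its call was not followed over the alternatives. The proapoptotic *Bax* averaged 7.56 and 8.33 FPKM and *Bbc3*, which encodes PUMA, 2.92 and 2.41 FPKM, and neither was called.

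Of 7 cell cycle and feedback genes tested, 3 were called higher and 1 lower (42.9% and 14.3%), beside 25.5% and 7.36% of all genes tested. *Sertad1*, a regulator of CDK4, rose from 3.28, 3.14 and 3.74 FPKM to 10.5, 15.8 and 9.10 FPKM (log2 difference 1.74, SE 0.25, limma adjusted p = 0.00295). *Ccng1*, cyclin G1, averaged 31.3 and 86.3 FPKM (log2 difference 1.47), and its call was lost without sham replicate 2 or sham replicate 3, with quantile normalization (0.51) and after the rescaling (0.69). The phosphatase *Ptp4a1* was the third (0.94), not called with quantile normalization (0.61) or after the rescaling (0.17). *Ppm1d*, the WIP1 phosphatase that switches off p53 signaling, fell by 0.78 on the log2 scale, from a mean of 4.03 FPKM to 2.29 FPKM. It was not called with TPM, nor without sham replicate 2, sham replicate 3, MI/RI replicate 1 or MI/RI replicate 2.

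In DNA repair, 6 genes were tested, with 1 called higher and 1 lower (16.7% each), beside 25.5% and 7.36% of all genes tested. *Pcna*, the replication clamp, was called higher (6.33 and 13.5 FPKM, log2 difference 1.13). It was not called without sham replicate 3 (0.998), with quantile normalization (0.53) or after the rescaling (0.35). *Xpc*, which recognizes bulky lesions, was called lower (1.93 and 0.816 FPKM) but not without sham replicate 2, sham replicate 3, MI/RI replicate 1 or MI/RI replicate 2. Its call was also lost with TPM and with no filter on low values. Of 10 metabolic and redox genes tested, 3 were called higher and 1 lower (30% and 10%), beside the same 25.5% and 7.36%. The antioxidant enzyme *Gpx1* rose most, from 101.0, 54.6 and 54.6 FPKM to 531.9, 279.0 and 261.9 FPKM (log2 difference 2.34, SE 0.35, limma adjusted p = 0.00329). *Steap3* and *Prkab1* were also called higher, each at a log2 difference under 1 (0.98 and 0.79), and the ceramidase *Acer2* fell by 0.91 from 4.53, 4.41 and 4.36 FPKM to 1.96, 2.47 and 2.55 FPKM. The call of *Steap3* was lost without sham replicate 3, and that of *Prkab1* in every fit with 1 rat left out except the one without MI/RI replicate 2. After the rescaling the log2 difference was 0.23 for *Steap3* and 0.011 for *Prkab1*, and for *Prkab1* it was 0.0067 with quantile normalization, none of them called.

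**Figure D4:**
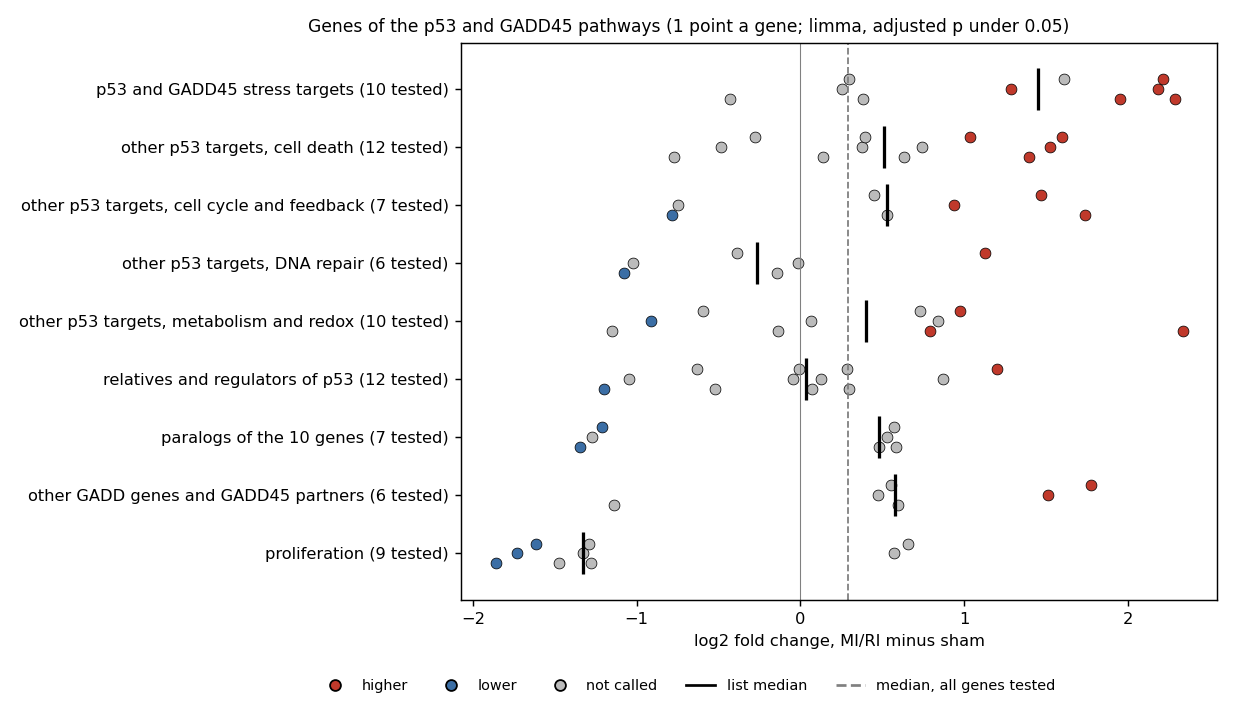
Log2 difference (MI/RI minus sham) of each tested gene, 1 row a list, with red for genes called higher, blue for lower and grey for the rest, a bar at the list's median and a dashed line at the median of all genes tested (0.29). The p53 and GADD45 stress targets have their median at 1.45, the 4 lists of other p53 targets between −0.27 and 0.53, and proliferation genes at −1.33. Without sham replicate 2, 3 of the 9 proliferation genes remain above the filter.

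Of 12 tested relatives and regulators of p53, 1 was called higher and 1 lower, with a median log2 difference of 0.03. Each call is 8.33% of the list, beside 25.5% higher and 7.36% lower of all genes tested. *Mdm4*, the partner of MDM2 in restraining p53, was lower at 1.51, 2.36 and 1.61 FPKM in MI/RI against 3.18, 6.96 and 3.44 FPKM in sham (log2 difference −1.20, limma adjusted p = 0.0199). That call was lost without sham replicate 2, MI/RI replicate 1 or MI/RI replicate 3, and with no filter on low values. *Ppp1r13l*, an inhibitor of p53, was called higher with overlapping groups (log2 difference 1.20), and in 5 of 6 fits with 1 rat left out it was not, nor with quantile normalization (0.72) or after the rescaling (0.43). Its call was also lost with median centring (0.95), with no filter on low values and without the intensity trend.

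Close relatives of the 10 genes were counted as well. Of 7 tested paralogs, 0 were called higher by limma (1 at an unadjusted p under 0.05) and 2 lower (28.6%, beside 7.36% of all genes tested). Both are CIP/KIP inhibitors like *Cdkn1a*. *Cdkn1b*, which encodes p27 and holds cells in quiescence, fell from 10.2, 17.1 and 17.2 FPKM to 6.79, 5.92 and 4.40 FPKM (log2 difference −1.34, SE 0.28, limma adjusted p = 0.00771). *Cdkn1c*, which encodes p57, fell from 4.34, 3.19 and 5.53 FPKM to 1.42, 1.87 and 2.09 FPKM (log2 difference −1.21, SE 0.26, limma adjusted p = 0.00891). Both genes were called lower in every alternative in which they were tested.

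The list of GADD45 partners and of other genes named GADD had 6 tested members, of which 2 were called higher (33.3%, beside 25.5% of all genes tested). *Map2k3*, a p38 activator downstream of MAP3K4, rose from 10.4, 7.33 and 6.09 FPKM to 27.1, 27.3 and 25.6 FPKM (log2 difference 1.77, SE 0.25, limma adjusted p = 0.00274). *Gadd45gip1*, a mitochondrial ribosomal protein first named for binding GADD45, averaged 14.1 and 37.9 FPKM (log2 difference 1.51), and was not called with quantile normalization (0.73). *Map3k4* itself averaged 1.17 FPKM in sham and 1.94 FPKM in MI/RI and was not called, nor was *Ddit3*, which encodes CHOP (26.3 and 38.1 FPKM). *Ppp1r15a*, known as GADD34, was listed at 0 in all 6 samples.

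Proliferation genes were counted beside the growth arrest genes. Of 9 tested, 3 were called lower (*Mki67*, *Ccna2* and *Bub1*) and 0 higher by limma, with 1 higher at an unadjusted p under 0.05, and the median log2 difference was −1.33. The share called lower was 33.3%, beside 7.36% of all genes tested. *Mki67*, the Ki-67 antigen, had 0.573, 2.93 and 0.544 FPKM in sham and 0.247, 0.205 and 0.239 FPKM in MI/RI. Sham replicate 2 stood apart from the other sham rats, and without it 3 of the 9 genes were still above the filter and 0 were called lower. None of 9 was called lower without MI/RI replicate 1 or MI/RI replicate 3. At a pseudocount of 1 and with no filter 0 were called lower, and 1 with TPM, quantile normalization or a pseudocount of 0.01. After the rescaling 7 were called lower, and 8 centred on cardiomyocyte markers. *Mki67*, *Ccna2* and *Bub1* averaged 0.230, 0.159 and 0.181 FPKM in MI/RI, near the 0.1 FPKM added, and passed the filter through the sham rats.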

How the data were processed

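RNA of the myocardium of 3 sham and 3 MI/RI rats was converted to libraries with a stranded total RNA kit. The deposited table holds 1 column of FPKM per rat, which the authors had scaled to gene length and library size; STAR and HTSeq are named in the submitters' processing notes, and their versions, the build and the annotation are not given in the sources used here. Of 30452 rows, 7092 had no symbol and kept their identifier; rows of 1 symbol were summed, giving 28293 genes. Antisense transcripts and close paralogs are uncertain, since the counting options are not stated. Gene symbols not in the table (*Eda2r*, *Triap1*, *Sco2*, *Cop1*, *E2f1*, *Hba-a1*, *Hbb* and *Alas2*) were not analysed here.

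Log2(FPKM + 0.1) was tested with limma 3.58.1 (R 4.3.3, with the intensity trend) over the 10942 genes with a mean of at least 0.5 FPKM, with Benjamini-Hochberg adjustment over all of them and a threshold of 0.05. The step was tested on simulated data. The paper names no test for the sequencing. Ratios between genes were compared with exact two-sided permutation tests, whose smallest p is 0.1 for 3 against 3. The 10 genes and all lists were chosen with earlier results of these data known. All 10 genes are described; from each list without cell type markers, up to 3 genes with the largest called rise and 3 with the largest called fall are named, plus *Mdm4* and *Sesn3*; 1 further gene of that rule is not reported here. *Aen*, *Bax*, *Bbc3*, *Map3k4*, *Ddit3* and *Ppp1r15a* among the listed genes, the marker *Hba-a2* and the CIP/KIP shares were picked after their values were seen.

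No counts were analysed. From the steps of low FPKM values (83.6% of 2536 genes within 5% of whole steps), depth relative to sham replicate 1 was 1 to 1.18 in sham and 0.873 to 0.935 in MI/RI. The labels number the rats 1 to 3 in both groups; the deviations of same-numbered rats from their group means correlated at 0.203, 0.117 and 0.118, so a replicate block was fitted as an alternative. Other scalings, pseudocounts, filters and leaving out each rat were the further alternatives.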

Additional observations from a re-analysis of the deposited data

How the results depend on the processing

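With 3 rats a group, the fits cannot separate the group from the mitochondrial share or the cardiomyocyte level. Of the 10 genes, 4 were called higher with quantile normalization, 4 after rescaling over genes outside the mitochondrial genome, 4 of 8 tested at a mean of at least 5 FPKM, 6 with the replicate block and 0 centred on cardiomyocyte markers, and 5 in the other alternatives; 1 was called lower after the rescaling and 4 after the centring. Beside these counts, 1892 of all 3784 genes tested were called higher at a mean of at least 5 FPKM. With the replicate block, 3085 of all 10942 were. The pairing by the replicate block changed the call of *Cdkn1a* alone among the genes named by rule (limma adjusted p = 0.0193). Over all genes, 2790 were called higher and 805 lower: quantile normalization gave 1441 and 1559, rescaling outside the mitochondrial genome 793 and 2857, cardiomyocyte centring 45 and 8180, median centring 1554 lower, TPM 527 lower, a mean of at least 5 FPKM 166 lower, and leaving out a rat 1526 to 2567 higher and 305 to 880 lower. The share of calls that were higher was 77.6% as deposited, 86.8% with TPM, 56.5% with median centring, 48.0% with quantile normalization, 21.7% with the rescaling, 0.547% with cardiomyocyte centring and 91.9% at 5 FPKM. Of the other p53 targets, 11 were called higher and 3 lower: 6 and 6 with quantile normalization, 3 and 11 with the rescaling, 0 and 23 with cardiomyocyte centring, 1 lower with TPM, 1 lower at 5 FPKM, 5 lower without the trend, and 5 to 10 higher and 1 to 4 lower without 1 rat. The log2 ratio of *Gadd45g* to *Gadd45a* changed sign at pseudocounts of 0.01 (−0.00073) and 0 (−0.0039), with quantile normalization (−0.42) and without sham replicate 3 (−0.38), MI/RI replicate 1 (−0.16) or MI/RI replicate 3 (−0.0063), the highest without a rat being 0.26. *Mdm2*, *Sesn1* and *Plk2* turned below 0 with quantile normalization (−0.18, −0.11 and −0.41), the rescaling (−0.48, −0.39 and −0.52) and cardiomyocyte centring (−1.70, −1.62 and −1.74). Cardiomyocyte centring also reversed *Cdkn1a* (−0.39), *Btg2* (−0.050), *Gadd45b* (−0.71), *Pmaip1* (−0.40), *Perp* (−0.48), *Tnfrsf10b* (−0.60), *Sertad1* (−0.27), *Ccng1* (−0.53), *Ptp4a1* (−1.06), *Pcna* (−0.87), *Steap3* (−1.02), *Prkab1* (−1.21), *Ppp1r13l* (−0.80), *Map2k3* (−0.23), *Gadd45gip1* (−0.49). The cause of these shifts was not tested.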

Other observations

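Among CIP/KIP inhibitor transcripts, in whose shares a single scaling factor per library cancels, *Cdkn1a* made up 60.2, 54.3 and 9.18% in the sham rats and 81.3, 83.7 and 79.6% in the MI/RI rats. In sham replicate 3, *Cdkn1b* was the largest share of the family (68.7%), and in the other 5 rats *Cdkn1a* was. *Cdkn1b* averaged 45.1 ± 21.2% in sham and 13.9 ± 1.55% in MI/RI, and *Cdkn1c* 13.7 ± 7.61% and 4.58 ± 1.77% (SD, n = 3). The groups did not overlap in any of the 3 shares (exact two-sided permutation p = 0.1 for each, the smallest that 3 against 3 allows), whereas the family sums overlapped in range, at 35.3 ± 9.72 FPKM in sham and 41.2 ± 8.38 FPKM in MI/RI. These shares were looked at after the values of the genes were known, and the low *Cdkn1a* of sham replicate 3 enters each of them.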
